A study of Mus musculus with 23 samples.

Results

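The 151 genes described here carry the symbols of cytosolic ribosomal proteins (49 genes named Rpl or Rps), of mitochondrial ribosomal proteins (54 genes named Mrpl or Mrps) and of the factors that start and extend protein synthesis (48 genes named Eif or Eef). The symbols also take in genes that are neither ribosomal proteins nor such factors, among them the ribosomal protein partner Rps19bp1, the kinases Eef2k, Eif2ak1, Eif2ak3 and Eif2ak4, the inhibitors Eif4ebp1 and Eif4ebp3 and the methyltransferases Eef1akmt1 and Eef1aknmt. They were chosen by symbol alone, among probes with a single gene symbol, and the S6 kinase genes (Rps6k) were dropped; no measured value entered the choice. They were read by 179 of the 21446 probes in the table and make up 151 of 8683 genes with 1 symbol. Probes of the 27 members with more than 1 were averaged. A further 30 probes carried a member's name beside other symbols and were not used. Rplp0, Rpsa and Eif2s1 had no probe of their own and were not assessed. All 151 symbols were found in RefSeq, where Eif2c5, an old name of an Argonaute gene, is listed as a long non-coding RNA and Rps4l as a transcribed pseudogene.

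A404 cells are 1 clone derived from P19, a mouse embryonal carcinoma, and can be driven towards smooth muscle. As background, Acta2 (smooth muscle actin) regulatory sequence drives their resistance to puromycin. Undifferentiated cells near confluence, at 0 h and without drug, formed the Control group (n = 6 arrays). Cells exposed to 1 µmol/L all-trans retinoic acid were taken after 48 h (RA48, n = 5) and after 96 h (RA96, n = 6), and 96 h of the acid and then 48 h of selection with puromycin gave the Puromycin group (n = 6). Whether the acid was kept on during selection is not given in the sources used here. Each array compared Cy5-labelled RNA of 5 to 6 plates with Cy3-labelled RNA of whole embryos of day 17.5, the same pool on all arrays and with no dye swap. Values below are log2 ratios of A404 over embryo RNA and changes are differences of group means of these ratios, ± SE of the fit unless stated otherwise. A ratio gives a level relative to the embryo pool, so ratios of different genes do not rank their amounts. In such bulk RNA, fewer cells of a type and less RNA per cell cannot be told apart.

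The markers followed the labels, but Acta2 is no separate check in Puromycin arrays, since its regulatory sequence drives the resistance selected for. Acta2 stood 4.56 ± 0.22, 6.77 ± 0.21 and 7.30 ± 0.21 log2 above Control in RA48, RA96 and Puromycin arrays, and Sox2, a pluripotency factor, changed by -2.23 ± 0.51, -4.46 ± 0.49 and -5.70 ± 0.49 in the same order. Of 6 measured pluripotency markers 4 were called lower against Control in each of these groups, and of 6 smooth muscle markers 4, 4 and 5 were called higher. Of 5 endoderm markers 4, 3 and 3 were called higher, of 4 fibroblast markers 1, 2 and 2, and of 6 skeletal and cardiac muscle markers none in RA48 (none at an unadjusted p under 0.05 in the limma fit) and 2 in each later group. Of 5 neuron markers 2 were called lower in RA48, 1 higher and 1 lower in RA96, and 2 lower in Puromycin arrays. Of all genes 18%, 23.9% and 24.6% were called higher against Control in RA48, RA96 and Puromycin arrays, and 16.4%, 27.6% and 28.6% lower. The marker lists moved with the groups, and their part in the changes of the ribosomal genes was not tested.

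A second split crossed all 4 groups. The deviations of the arrays from their group means, over all rows other than the members, had a first component that held 48.5% of the variance, against 10.7% for the second, and it separated 11 arrays (Control 1 to 3, RA48 1 to 3, RA96 1 and 3, Puromycin 1 to 3) from the other 12. These are called the first and the second array set. The labels name no such batch. Whole arrays of a group correlated at 0.83 to 0.98 within a set and at 0.70 to 0.85 between sets. Because both sets hold arrays of every group, each result is given over all 23 arrays and, where it matters, with the set as a block or within each set. The array medians over all rows lay between -0.08 and 0.02.

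Ribosomes read messenger RNA and join amino acids into protein. The cytosolic ribosome translates nuclear messages and its protein genes are among the most strongly expressed in growing cells, while the mitochondrial ribosome is built from proteins made in the cytosol and imported, and it translates the few messages of the mitochondrial genome, which encode parts of the respiratory chain. Initiation factors (eIF) bring the first transfer RNA and the message to the ribosome, and elongation factors (eEF) carry each further amino acid in and move the ribosome along; eIF2, eIF4E and eEF2 are control points, held back by the eIF2 kinases, the eIF4E-binding proteins and the eEF2 kinase. Undifferentiated embryonal carcinoma cells divide fast, and retinoic acid slows this as they differentiate.

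Promoters are shown for the members whose level differed most among the 4 groups by the F statistic, a pair from each class, among those with a promoter in RefSeq's table for GRCm38.p6. Each window runs 5′ to 3′ on the gene's own strand, from 200 bases before the first start listed there to 20 bases from it. For Mrpl23 that start lies inside the gene, which RefSeq places at chr7:142532467-142540747. Its whole window therefore lies within the gene body and not at the gene's annotated start. Capitals mark CGGAAG or its reverse complement CTTCCG, the core that ETS-type factors bind. None of the windows held either of the other motifs searched.
Mrpl23 chr7:142532832-142533051 (+ strand): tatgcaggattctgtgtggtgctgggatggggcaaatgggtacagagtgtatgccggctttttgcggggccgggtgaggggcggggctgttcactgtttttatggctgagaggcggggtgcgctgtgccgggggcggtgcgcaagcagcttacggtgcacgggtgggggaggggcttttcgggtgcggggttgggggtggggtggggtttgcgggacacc
Mrpl47 chr3:32736736-32736955 (- strand): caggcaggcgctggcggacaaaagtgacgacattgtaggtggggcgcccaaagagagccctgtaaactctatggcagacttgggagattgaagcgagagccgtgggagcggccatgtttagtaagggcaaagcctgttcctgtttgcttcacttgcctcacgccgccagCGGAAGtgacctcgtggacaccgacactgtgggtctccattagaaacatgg
Rpl37a chr1:72711060-72711279 (+ strand): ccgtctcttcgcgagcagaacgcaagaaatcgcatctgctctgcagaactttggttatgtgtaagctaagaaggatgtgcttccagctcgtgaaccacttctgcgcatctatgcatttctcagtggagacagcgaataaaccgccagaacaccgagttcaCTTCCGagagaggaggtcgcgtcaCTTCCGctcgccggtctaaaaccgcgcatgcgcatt
Rps6 chr4:86857348-86857567 (- strand): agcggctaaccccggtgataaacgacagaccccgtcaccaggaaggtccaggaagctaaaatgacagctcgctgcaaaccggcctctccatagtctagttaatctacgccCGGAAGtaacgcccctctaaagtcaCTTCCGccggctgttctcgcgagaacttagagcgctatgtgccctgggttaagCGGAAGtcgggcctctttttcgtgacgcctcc
Eif1ax chrX:159371978-159372197 (+ strand): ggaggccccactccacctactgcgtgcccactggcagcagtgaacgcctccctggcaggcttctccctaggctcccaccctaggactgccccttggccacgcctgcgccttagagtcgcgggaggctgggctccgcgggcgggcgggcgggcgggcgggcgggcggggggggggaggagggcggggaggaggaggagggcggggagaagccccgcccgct
Eif2a chr3:58525621-58525840 (+ strand): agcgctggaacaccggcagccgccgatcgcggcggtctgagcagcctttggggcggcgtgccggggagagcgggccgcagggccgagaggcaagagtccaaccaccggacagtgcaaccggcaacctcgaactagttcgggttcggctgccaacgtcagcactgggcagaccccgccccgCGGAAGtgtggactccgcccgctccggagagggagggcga
The lines of Mrpl47 and Eif2a hold a single such core, Rpl37a holds a pair close to the start, Rps6 holds 3, and Mrpl23 and Eif1ax have none of these letters. Of the 151 members 124 had a promoter in the table. CGGAAG, on either strand, was in 51.3% of 39 cytosolic, 45.8% of 48 mitochondrial and 37.8% of 37 factor windows, against 18.1% of 17491 windows of protein-coding genes. CACGTG, the E-box that Myc-type factors bind (its own reverse complement), was in 10.3%, 8.33% and 18.9% of the same windows, against 6.52% of all. CTCTTTC, one spelling of the pyrimidine-rich stretch at the start of ribosomal protein genes, searched on both strands, was in 17.9%, 2.08% and 10.8%, against 5.40%. These motifs were settled on after several others had been looked at. No binding was measured here, and the shares are descriptions of the sequences.

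The 3 classes followed different courses. Many mitochondrial ribosomal genes fell within the first 48 h of retinoic acid, in both array sets, and were still low at the later points. Translation factors had more falls than rises. Cytosolic ribosomal genes differed more between the array sets than between the groups, and within a set most of the drop in their median came after 48 h. On each array the median ratio of a class was taken over its members. For the 54 mitochondrial genes this median averaged 0.78 ± 0.09 in Control, 0.43 ± 0.15 in RA48, 0.35 ± 0.07 in RA96 and 0.37 ± 0.09 in Puromycin arrays (SD over arrays). For the 48 factors it averaged 0.77 ± 0.21, 0.51 ± 0.15, 0.56 ± 0.14 and 0.45 ± 0.08 in the same groups, and for the 49 cytosolic genes 1.21 ± 0.55, 1.02 ± 0.64, 1.03 ± 0.47 and 0.75 ± 0.47. The SD of the cytosolic class is thus several times that of the mitochondrial class in every group.

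**Figure D1:**
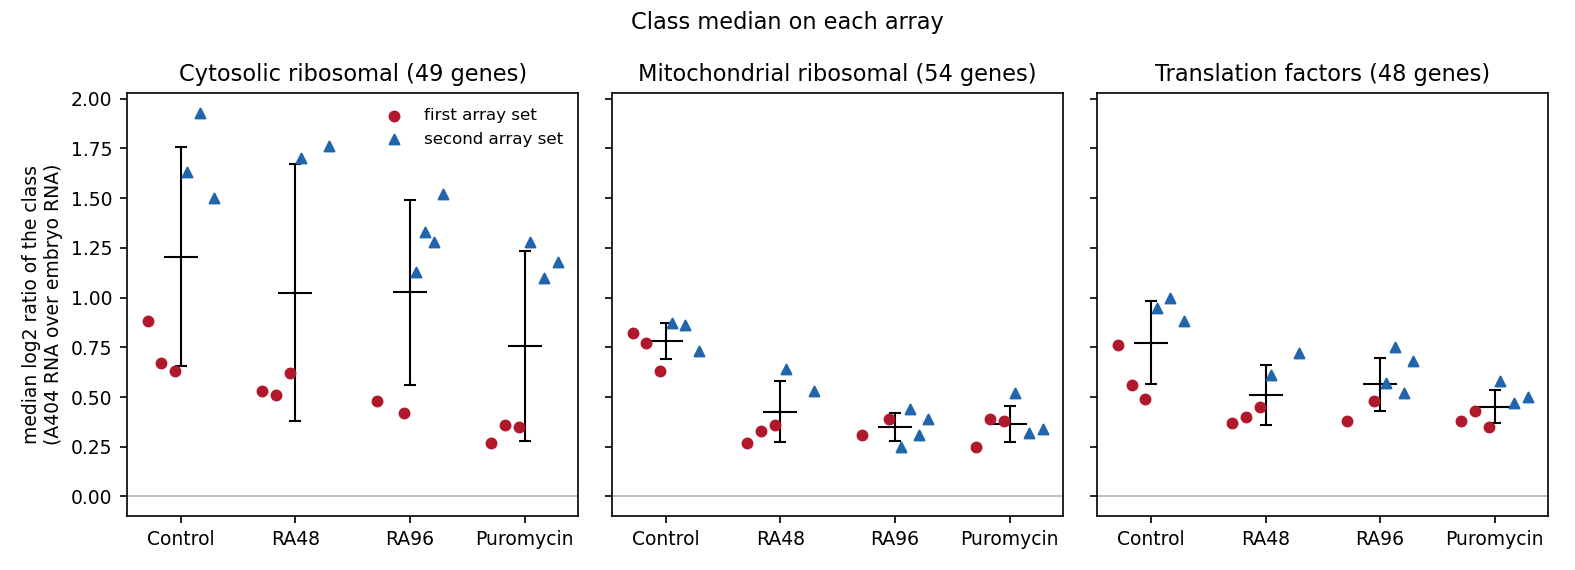
Median log2 ratio (A404 over embryo RNA) of each class on each of the 23 arrays, by group; circles are the first array set, triangles the second, and bars give the mean ± SD over arrays. Mitochondrial medians lie between 0.63 and 0.87 in Control arrays and between 0.25 and 0.64 in all other arrays, whereas cytosolic medians fall into a low and a high band that follow the array set.

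Between the sets, each cytosolic median stood apart in every group. In the first set they averaged 0.73 in Control, 0.55 in RA48, 0.45 in RA96 and 0.33 in Puromycin arrays, and in the second set 1.69, 1.73, 1.32 and 1.19. The mitochondrial medians averaged 0.74, 0.32, 0.35 and 0.34 in the first set and 0.82, 0.58, 0.35 and 0.39 in the second. Averaged over the 4 groups, 39 of 49 cytosolic genes (79.6%) were lower by at least 0.5 log2 in the first set, against 20.4% of mitochondrial genes, 16.7% of factors and 13.2% of all 17868 rows. The median cytosolic difference was -0.96, against -0.02 over all rows. Rps6, Rpl37a, Rpl7l1, Rpl39l and Rps23 were among the cytosolic genes with small differences between sets (-0.21, -0.11, -0.08, 0.01 and -0.08). Rpl5, a large subunit protein named here after its values were seen, had the largest cytosolic difference, -1.67. Of the factors, Eef2, which moves the ribosome to the next codon, differed by -3.13. What set the sets apart was not tested.

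**Figure D2:**
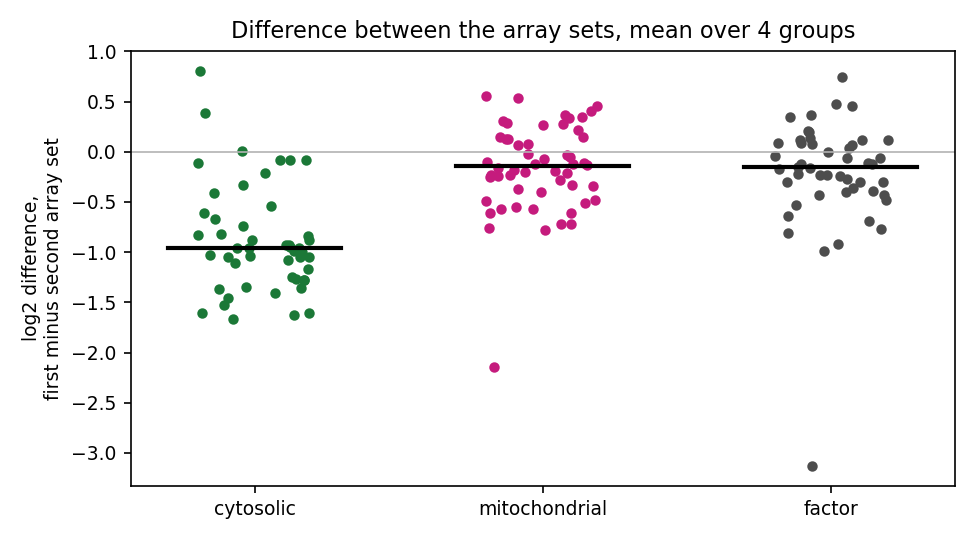
Difference between the array sets (first minus second, log2, mean over the 4 groups) for each member, by class; black bars are class medians. The cytosolic points centre on -0.96 and the other classes on -0.14 and -0.15.

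The first 48 h of retinoic acid were read by setting RA48 against Control. A member was called where its adjusted p was under 0.05 (limma, Benjamini-Hochberg over all 17868 rows). Of 151 members 3 were called higher and 49 lower, 34.4% in all, and 34.4% of all genes with 1 symbol were called in this comparison, 18% higher and 16.4% lower. The share called was therefore that of the array, and its direction was not: 32.5% of the members were called lower. Among mitochondrial genes none was higher and 26 of 54 were lower, with a median change of -0.40, against -0.06 over all rows. With group and set as a random block, 8 of the 26 were still called lower. At an unadjusted p under 0.05 in the limma fit, again no mitochondrial gene was higher and 36 were lower. Factors gave 2 higher and 18 lower of 48 (median -0.27), and cytosolic genes 1 higher and 5 lower of 49 (median -0.16). The cytosolic median was -0.03 once the array set was a block. With the array set as a block, 4 members were called higher and 78 lower, against 24.8% and 24.6% of all genes, and the counts were 0 and 43 for mitochondrial genes, 3 and 26 for factors and 1 and 9 for cytosolic genes. Within the sets alone, 48 of 54 mitochondrial genes lay below 0 in both, as did 33 of 48 factors and 21 of 49 cytosolic genes.

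By 96 h (RA96 against Control), 6 members were called higher and 57 lower. Of all genes 51.5% were called, 23.9% higher and 27.6% lower, against 37.7% of members lower and 3.97% higher. Mitochondrial genes gave 34 of 54 lower and none higher (limma, also none at an unadjusted p under 0.05), with a median of -0.46, and the random block left 14 of these. Factors gave 4 higher and 19 lower, with a median of -0.31. Cytosolic genes gave 2 higher and 4 lower, with a median of -0.08, equal to that of all rows. The sets are not balanced here: RA96 has 2 arrays in the first and 4 in the second, Control 3 in each. With the set as a block the cytosolic median was -0.26. Within the first and second sets it was -0.15 and -0.35, against -0.11 and -0.08 over all rows. With the set as a block the members' counts were 6 and 101, against 28.6% and 35.9% of all genes, and 29 of 49 cytosolic genes were then called lower. At the end point (Puromycin against Control) 5 members were called higher and 61 lower, where 53.2% of all genes were called, 24.6% higher and 28.6% lower. Mitochondrial genes gave 1 and 34, factors 2 and 19, and cytosolic genes 2 and 8, with medians of -0.41, -0.30 and -0.39. The random block left 12 of the 34 lower mitochondrial genes. The set as a block gave 7 and 105 members, against 30% and 37.3% of all genes, and 35 of the cytosolic genes were among the lower ones. With group and set as a random block 14, 20 and 21 members were called in RA48, RA96 and Puromycin arrays against Control, all of them lower. These are 9.27%, 13.2% and 13.9% of the members. Of all genes that fit called 12.5%, 21.5% and 24.5% in either direction, and 5.12%, 10% and 11.6% lower. These 3 comparisons share their Control arrays. Over all 4 groups together, the F test called 71 of 151 members (47%), against 60.8% of all genes: 35 mitochondrial, 28 factor and 8 cytosolic genes. With the set as a block it called 125, against 79.3% of all genes, of which 39 were cytosolic.

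Many of the single calls given below do not hold with the random block. For the members chosen by rule to be named, 103 changes were called over all arrays, and the random block ended 62 of them, with adjusted p from 0.0521 to 1. In RA48 against Control 11 of 28 held, those of Mrpl1, Mrpl15, Mrpl35, Mrpl47, Mrpl52, Eif1ax, Eif2a, Eif2s2, Eif4ebp1, Eef1e1 and Eef1akmt1. In RA96 against Control 14 of 32 held, those of Mrpl1, Mrpl12, Mrpl15, Mrpl23, Mrpl35, Mrpl47, Mrps5, Mrps27, Rpl37a, Eif1ax, Eif2a, Eif2s2, Eif4ebp1 and Eef1a2. In Puromycin against Control 15 of 30 held, those of Mrpl1, Mrpl2, Mrpl12, Mrpl15, Mrpl23, Mrps5, Rpl7l1, Rpl37a, Rps6, Eif1ax, Eif2a, Eif2d, Eif2s2, Eif4ebp1 and Eef1akmt1. In RA96 against RA48 only Mrpl23 held, of 9, and in Puromycin against RA96 none of 4 did. No call of a higher level against Control was among those that held, so the rises of Rpl30, Rps23, Mrpl32, Eif4ebp3 and Eif4g3 below rest on the fit without this block.

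**Figure D3:**
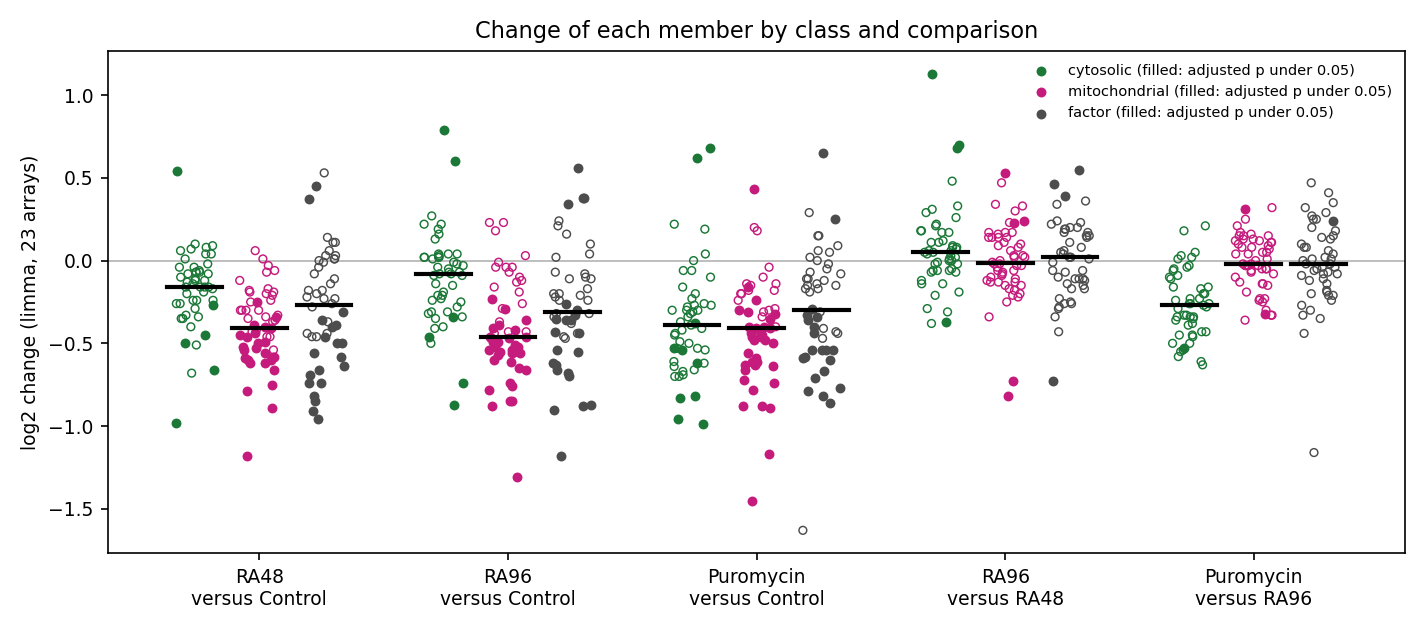
Log2 change of each member in the 5 comparisons, by class; filled points have an adjusted p under 0.05 and black bars are class medians. The mitochondrial medians lie at -0.40, -0.46 and -0.41 against Control and at -0.02 in both later steps.

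Of the mitochondrial ribosomal genes, falls were called among those named for the large subunit (Mrpl) and for the small (Mrps). Subunits were read from these symbols alone, and the place of each protein was not checked. In RA48 against Control 16 of 38 large subunit genes and 10 of 16 small subunit genes were called lower. In RA96 the counts were 22 and 12, and in Puromycin arrays 25 and 9. Of all genes 16.4%, 27.6% and 28.6% were called lower in these 3 comparisons. Mrpl15, a large subunit protein, had the largest change of the class in all 3 comparisons. Its ratios were 1.40, 1.86 and 1.96 (lowest, median and highest) in Control arrays, and 0.28, 0.52, 0.43, 0.90 and 0.81 in the RA48 arrays. RA96 arrays read 0.20, 0.50 and 0.63 for Mrpl15, and Puromycin arrays 0.15, 0.30 and 0.61 (lowest, median and highest). No array of the treated groups reached the lowest Control array. The change was -1.18 ± 0.12 at 48 h (2.27-fold lower, adjusted p = 1.2e-07), -1.31 ± 0.12 at 96 h and -1.45 ± 0.12 at the end point (2.73-fold lower, adjusted p = 9.29e-10). Within the first and second array sets the end point change of Mrpl15 was -1.42 and -1.47.

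Mrpl47 and Mrpl35, also of the large subunit, had their lowest means at 48 h, although their differences between RA96 and RA48 were not called. Puromycin arrays were not tested against RA48. Mrpl47 read 1.33, 1.48 and 1.74 (lowest, median and highest) in Control arrays, 0.58, 0.66, 0.70, 0.81 and 0.99 in RA48 arrays, 0.88, 0.98 and 1.10 in RA96 arrays and 0.98, 1.06 and 1.16 in Puromycin arrays. Every later array of Mrpl47 was below every Control array. Its change was -0.75 ± 0.08 (adjusted p = 3.37e-07), -0.52 ± 0.08 and -0.44 ± 0.08 against Control. Mrpl35 changed by -0.62 ± 0.09, -0.51 ± 0.09 and -0.45 ± 0.09. Mrpl1, which sits at the stalk where transfer RNA leaves, changed by -0.89 ± 0.12, -0.74 ± 0.12 and -0.64 ± 0.12. Mrpl12, a stalk protein also known to bind the mitochondrial RNA polymerase, changed by -0.79 ± 0.17, -0.85 ± 0.16 and -0.72 ± 0.16. All 4 genes passed the test in each of these comparisons.

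Other members had their lowest means later, in steps that were not called on their own. Mrps5, a small subunit protein, averaged 0.46 ± 0.27 in RA48, 0.24 ± 0.22 in RA96 and 0.14 ± 0.21 in Puromycin arrays, against 1.02 ± 0.18 in Control arrays (SD), and passed the test against Control each time (changes of -0.56, -0.78 and -0.88). Mrps27, another small subunit protein, had its lowest mean at 96 h, with changes of -0.54 ± 0.14, -0.88 ± 0.14 and -0.56 ± 0.14. Mrpl2, part of the large subunit core, changed by -0.66 ± 0.17, -0.57 ± 0.16 and -0.89 ± 0.16. In the Puromycin arrays Mrpl2 read -0.63, -0.57 and -0.65 in the first set and 0.16, 0.02 and 0.06 in the second, so the sets did not overlap within that group.

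Mrpl23, which lines the tunnel through which the new chain leaves, was lower after 48 h. It read 0.17, 0.35 and 0.42 (lowest, median and highest) in Control arrays and 0.09, 0.14, 0.21, 0.38 and 0.26 in RA48 arrays, a change of -0.12 ± 0.09 that was not called (adjusted p = 0.385). In RA96 arrays it read -0.70, -0.53 and -0.31, and in Puromycin arrays -1.01, -0.87 and -0.60 (lowest, median and highest). Against RA48, the RA96 level had fallen by 0.73 ± 0.09 (adjusted p = 6.09e-06), with no overlap of the groups. The Puromycin level was lower again by 0.32 ± 0.09 against RA96 (adjusted p = 0.0264), with overlapping arrays; leaving out RA96 replicate 4, 5 or 6 or Puromycin replicate 1, 2 or 3 took the call away, with adjusted p from 0.059 to 0.0761. Against Control the end point change was -1.17 ± 0.09 (2.25-fold lower, adjusted p = 1.67e-10), the smallest adjusted p of any member in this comparison.

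**Figure D4:**
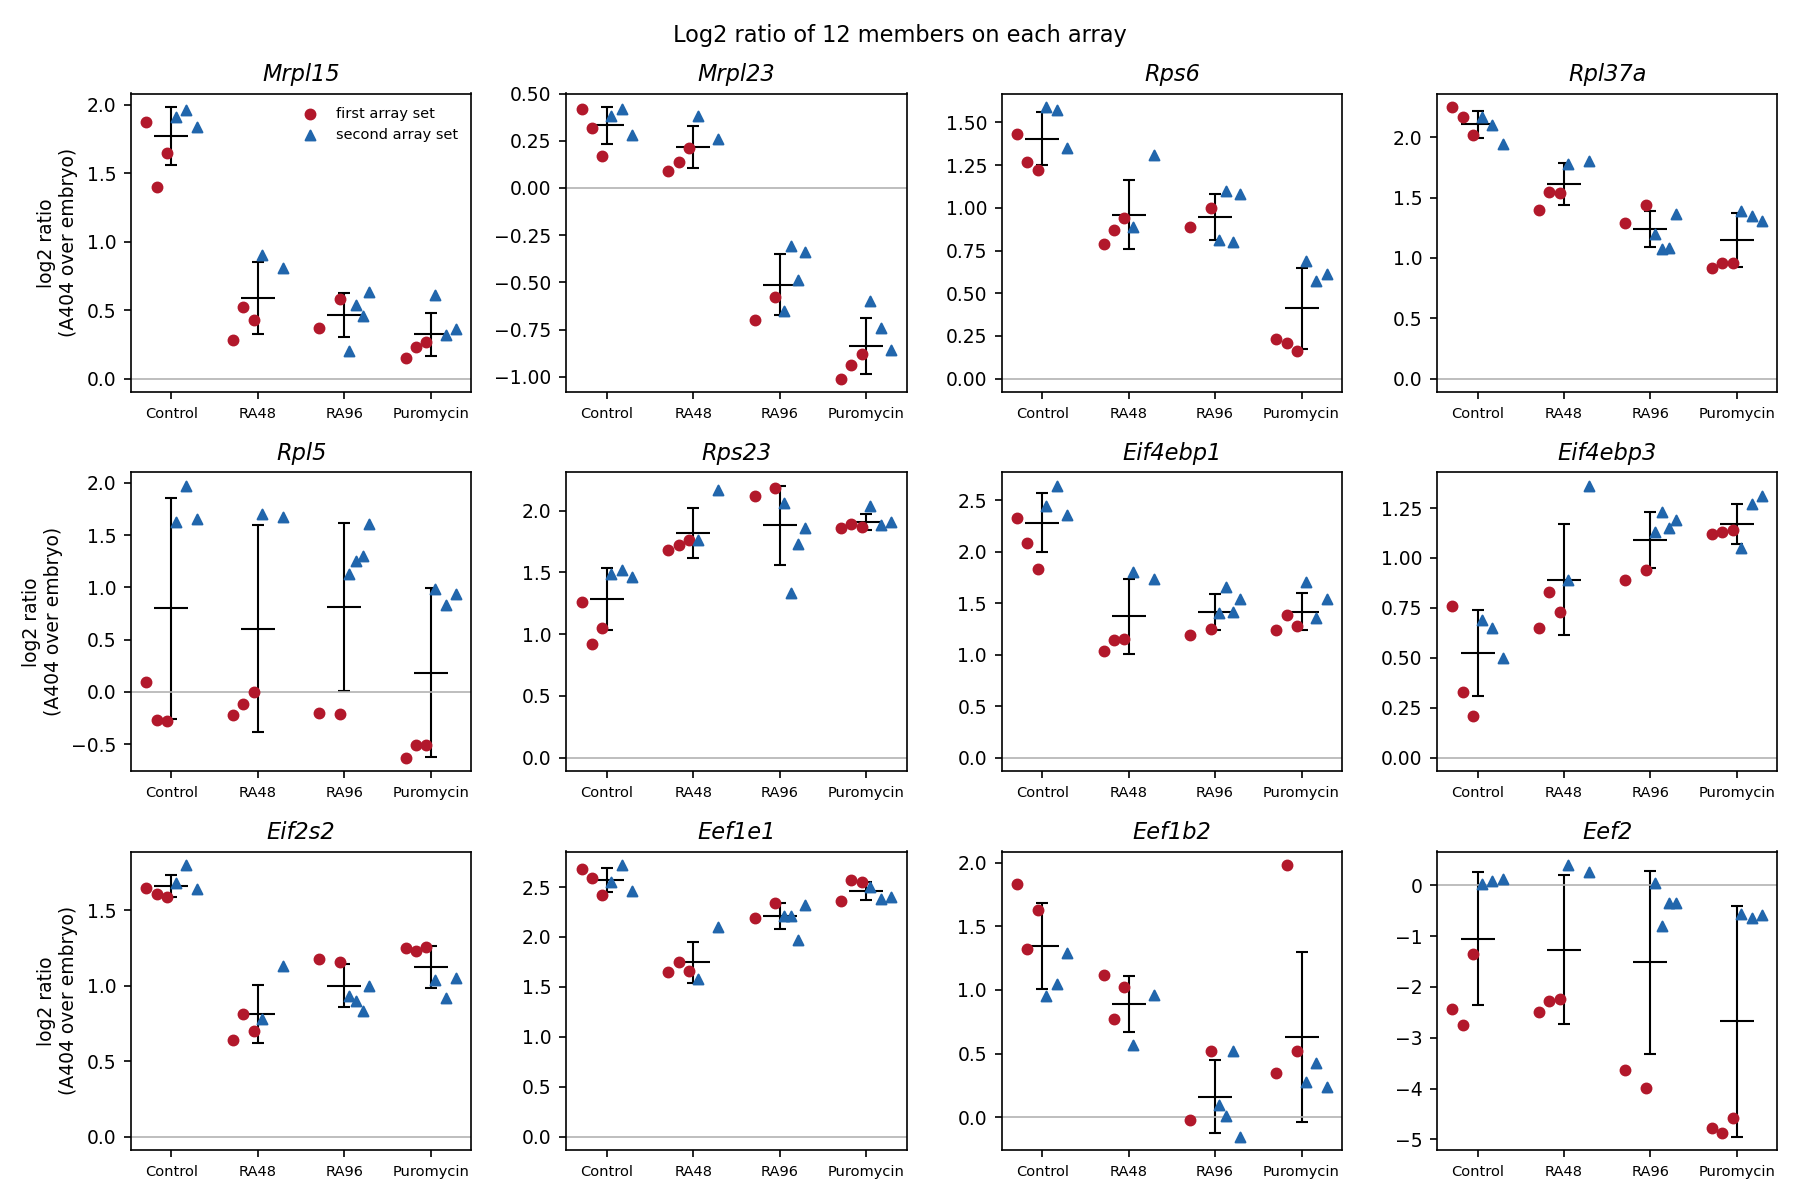
Log2 ratio (A404 over embryo RNA) of 12 members on each array, by group; circles are the first array set, triangles the second, and bars give the mean ± SD. Mrpl15 and Eif2s2 drop at RA48, Mrpl23 drops at RA96, and the sets of Rpl5 and Eef2 form separate bands in every group.

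Mrps18a, one of the mitochondrial relatives of bacterial S18, also fell between 48 and 96 h. It read 0.24, 0.64, 0.33, 0.77 and 1.02 in RA48 arrays and -0.40, -0.27 and 0.00 (lowest, median and highest) in RA96 arrays, and its change was -0.82 ± 0.26 (adjusted p = 0.0318). Leaving out RA48 replicate 2, 4 or 5 or RA96 replicate 1, 4 or 6 took this call away, the adjusted p then being 0.0539 to 0.068. After selection its sets parted: the Puromycin arrays held -0.71, -0.95 and -1.22 in the first set and 0.69, 0.44 and 0.27 in the second. Mrps18b, a relative of it, rose after selection. It read 1.57, 1.65 and 1.79 in Puromycin arrays against 1.25, 1.35 and 1.49 in RA96 arrays (lowest, median and highest), a rise of 0.31 ± 0.09 (adjusted p = 0.0400) with no overlap. Leaving out RA48 replicate 2 or any of 9 RA96 and Puromycin arrays (all but RA96 replicates 3 and 4 and Puromycin replicate 4) put its adjusted p between 0.0504 and 0.105.

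A few mitochondrial genes rose after 48 h. Mrpl52 read 0.10, 0.09, 0.07, 0.03 and 0.04 in RA48 arrays, tightly grouped, and 0.15, 0.31 and 0.47 in RA96 arrays, a rise of 0.24 ± 0.08 (adjusted p = 0.0435). Its RA96 arrays all lay below its Control arrays of 0.56, 0.65 and 0.78 (lowest, median and highest). The rise was lost on leaving out any RA48 array, RA96 replicate 1, 3, 4 or 6, Control replicate 1 or 4 or Puromycin replicate 4 (adjusted p from 0.0501 to 0.0934). Mrpl32, whose maturation is known to start mitochondrial ribosome assembly, read -0.39, -0.43, -0.41, -0.29 and -0.46 in RA48 arrays and 0.02, 0.11 and 0.29 in RA96 arrays, a rise of 0.53 ± 0.14 (adjusted p = 0.00971). Mrpl32 was the single mitochondrial gene called higher at the end point (0.43 ± 0.13 over Control, adjusted p = 0.0107), where the first set read 0.64, 0.80 and 0.75 and the second 0.09, -0.05 and 0.08. Within the sets this change was 0.71 (adjusted p = 0.000212) and 0.15 (adjusted p = 0.25).

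**Figure D5:**
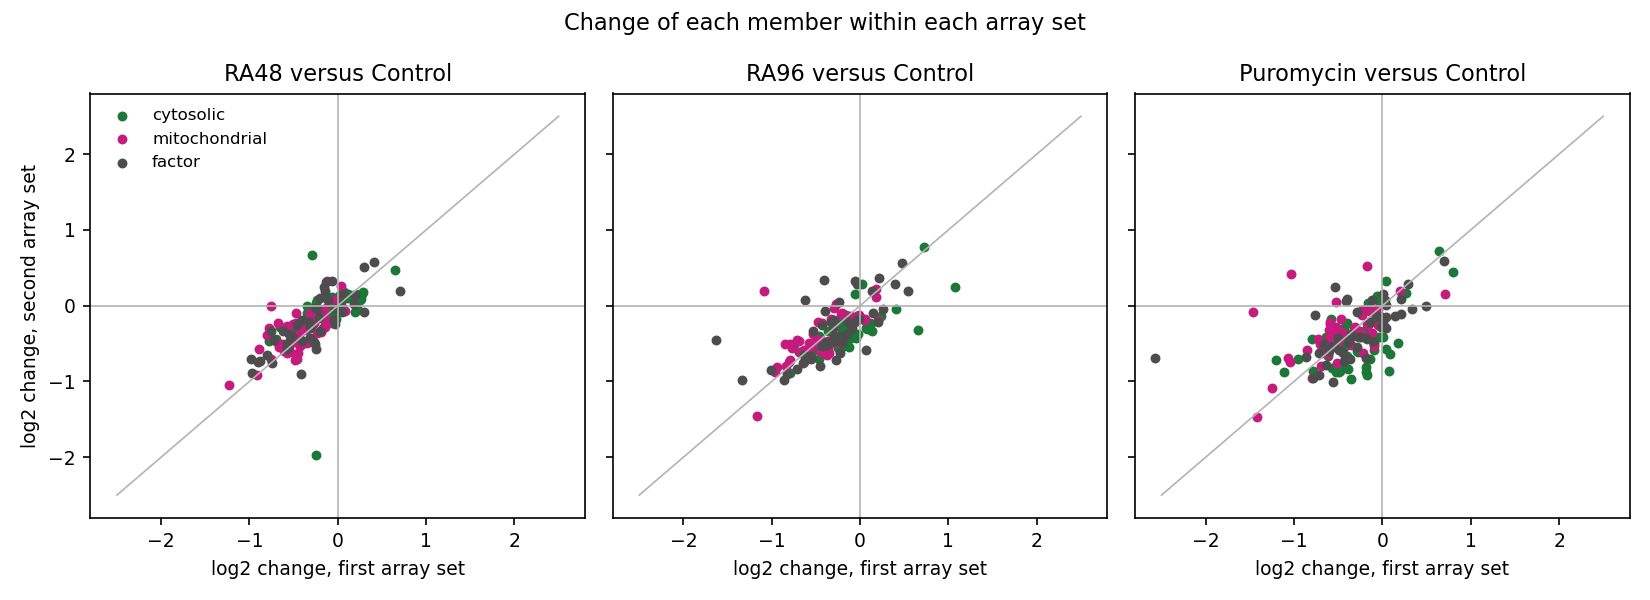
Change of each member against Control within the first array set (x axis, log2) and within the second (y axis, log2), by class, with the line of equal change. In RA48 versus Control 48 of 54 mitochondrial genes lie below 0 on both axes, against 21 of 49 cytosolic genes, and in Puromycin versus Control 49 and 37 do.

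Among cytosolic ribosomal genes, Rpl37a and Rps6 had the highest F statistics. Rpl37a, a zinc-binding protein of the large subunit, read 1.94, 2.13 and 2.25 (lowest, median and highest) in Control arrays, 1.40, 1.55, 1.54, 1.78 and 1.80 in RA48 arrays, 1.07, 1.25 and 1.44 in RA96 arrays and 0.92, 1.14 and 1.39 in Puromycin arrays. No later array overlapped the Control arrays. Its change was -0.50 ± 0.11 (adjusted p = 0.00118), -0.87 ± 0.10 (adjusted p = 4.39e-07) and -0.96 ± 0.10 (1.94-fold lower, adjusted p = 8.39e-08) against Control. Rps6, the small subunit protein phosphorylated by the S6 kinases, fell in steps. It read 1.22, 1.39 and 1.59 in Control arrays, 0.79, 0.87, 0.94, 0.89 and 1.31 in RA48 arrays, 0.80, 0.94 and 1.10 in RA96 arrays and 0.16, 0.40 and 0.69 in Puromycin arrays.

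Rps6 was 0.45 ± 0.12 lower in RA48 than in Control arrays (adjusted p = 0.00515) and differed by -0.01 ± 0.12 between RA96 and RA48, which was not called (adjusted p = 0.958). After selection it fell by a further 0.53 ± 0.11 against RA96 (adjusted p = 0.00455), and every Puromycin array was below every RA96 array. The end point change was -0.99 ± 0.11 (1.99-fold lower, adjusted p = 1.49e-07). Within the first and second sets the step after selection was -0.74 (adjusted p = 0.00135) and -0.32 (adjusted p = 0.128). Rpl7l1, a relative of Rpl7, fell by 0.27 ± 0.08, 0.34 ± 0.08 and 0.38 ± 0.08 against Control, and its RA48 arrays, from 0.84 to 0.91, all lay below its Control arrays, from 1.10 to 1.21. Of the 2 probes of Rpl7l1, 1 was called each time (-0.43, -0.48 and -0.57) and the other was not (-0.11, -0.21 and -0.20). Rpl39l, a relative of Rpl39 best known from testis, fell by 0.66 ± 0.18 in RA48 arrays and 0.53 ± 0.17 in Puromycin arrays but stood at 0.02 ± 0.17 in RA96 arrays (not called). Its RA96 arrays of the first set read 1.12 and 1.09 and those of the second 0.40, 0.19, 0.05 and 0.28.

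Cytosolic rises were few. Rpl30, of the large subunit, read 1.14, 1.62 and 2.16 in RA96 arrays and 1.32, 1.47 and 1.86 in Puromycin arrays, against 0.78, 0.84 and 0.95 in Control arrays (lowest, median and highest). Both later groups lay above all Control arrays, by 0.79 ± 0.20 (adjusted p = 0.00256) and 0.68 ± 0.20 (adjusted p = 0.00759). At 48 h the sets of Rpl30 parted: 0.47, 0.48 and 0.52 in the first set and 1.36 and 1.82 in the second. Rps23, of the decoding centre of the small subunit, was higher by 0.54 ± 0.14, 0.60 ± 0.13 and 0.62 ± 0.13 in RA48, RA96 and Puromycin arrays than in Control arrays (adjusted p = 0.0055, 0.000905 and 0.000562). This rise rests on 1 of its 2 probes, which changed by 1.19, 1.33 and 1.44, whereas the other changed by -0.12, -0.14 and -0.19 and was not called. Ribosomal protein genes of the cytosol have many near-identical copies in the genome, and which copies a probe reads was not tested.

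The set as a block called many more cytosolic genes than the fit without it or the random block. In the step from 48 to 96 h (RA96 against RA48), 3 cytosolic genes were called higher and 1 lower over all arrays; the set block gave 3 and 20. The random block called no cytosolic gene in this step (limma; at an unadjusted p under 0.05, 2 were higher and 1 lower). Small subunit genes gave 6 of 12 lower in that block fit and large subunit genes 14 of 30, where 20.3% of all genes were lower. Against Control, the end point block fit called 11 of 12 small subunit genes and 20 of 30 large subunit genes lower, with median changes of -0.44 and -0.18 within the first set and -0.60 and -0.59 within the second. In that block fit 37.3% of all genes were lower. The random block called 3 of 49 cytosolic genes lower at the end point (6.12%), against 11.6% of all genes. Rpl5 shows the pattern: its Control arrays read 0.09, -0.27 and -0.28 in the first set and 1.63, 1.97 and 1.65 in the second, and its Puromycin arrays -0.63, -0.51 and -0.51 and then 0.98, 0.83 and 0.94. The change of Rpl5 at the end point was -0.61 ± 0.50 over all arrays (adjusted p = 0.331) and -0.61 with the set as a block (adjusted p = 1.86e-05). For Rpl5 at this end point, where both groups have 3 arrays in each set, the 2 fits thus give the same change with a different error. In comparisons with RA48 or RA96 the sets are not balanced, and the change itself can move. In RA96 against RA48 the cytosolic median was 0.05 over all arrays and -0.23 with the set as a block.

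Some initiation factors were lower by 48 h. Of the 4 members Eif2a, Eif2d, Eif2s2 and Eif2s3y, 2, 3 and 3 were called lower in RA48, RA96 and Puromycin arrays against Control. Eif2s2, the beta subunit of eIF2, read 1.59, 1.64 and 1.80 (lowest, median and highest) in Control arrays, 0.64, 0.81, 0.70, 0.78 and 1.13 in RA48 arrays, 0.83, 0.97 and 1.18 in RA96 arrays and 0.92, 1.14 and 1.26 in Puromycin arrays. Every later array lay below the Control arrays, with changes of -0.85 ± 0.09 (1.80-fold lower, adjusted p = 2.86e-07), -0.66 ± 0.09 and -0.54 ± 0.09. At the end point 1 of the 2 probes of Eif2s2 was called (-0.67) and the other changed by -0.40 (limma, adjusted p = 0.101). Eif2a, which can deliver initiator transfer RNA without being a part of eIF2, fell by 0.74 ± 0.10, 0.88 ± 0.09 (adjusted p = 9e-08) and 0.59 ± 0.09. Eif1ax, needed for scanning to the start codon, had the highest F statistic of the factors. Its Control arrays read 1.41, 1.60 and 1.74, its RA48 arrays 0.84, 0.91, 0.87, 0.80 and 0.81, its RA96 arrays 0.70, 1.01 and 1.08 and its Puromycin arrays 0.91, 0.98 and 1.07. The change of Eif1ax was -0.74 ± 0.08, -0.63 ± 0.08 and -0.60 ± 0.08, and both of its probes were called lower each time.

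Of the other initiation factors, Eif2d, an alternative carrier of transfer RNA, moved late: its change was -0.28 ± 0.18 at 48 h (not called), -0.54 ± 0.17 at 96 h and -0.79 ± 0.17 at the end point (adjusted p = 0.000732). Of 5 subunits of eIF2B, the exchange factor that recharges eIF2, 3, 2 and 3 were called lower in RA48, RA96 and Puromycin arrays against Control. Of 8 subunits of eIF3, the large scaffold on the small subunit, 2, 3 and 3 were called lower, and 1 (Eif3k, by 0.38 ± 0.15, adjusted p = 0.0487) was called higher in RA96 arrays. Of all genes 16.4%, 27.6% and 28.6% were called lower in the same comparisons. Eif5a, which helps ribosomes past slow stretches, was 0.69 ± 0.20 lower at 48 h (adjusted p = 0.0117), and its later differences of -0.46 and -0.44 were not called (adjusted p = 0.0516 and 0.0619). Eif6, which keeps free large subunits from joining, was 0.50 ± 0.09 lower at 48 h and 0.33 ± 0.09 lower at 96 h. At the end point its difference was -0.15 ± 0.09 (adjusted p = 0.187), with 0.59, 0.72 and 0.80 in Puromycin arrays against 0.64, 0.90 and 1.04 in Control arrays (lowest, median and highest).

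The inhibitors of the cap-binding step went in opposite directions. Eif4ebp1, which binds eIF4E until mTOR phosphorylates it, read 1.83, 2.35 and 2.64 (lowest, median and highest) in Control arrays, 1.04, 1.14, 1.15, 1.80 and 1.74 in RA48 arrays, 1.19, 1.41 and 1.66 in RA96 arrays and 1.24, 1.38 and 1.71 in Puromycin arrays. All later arrays lay below the Control arrays. The change was -0.91 ± 0.15 (1.88-fold lower, adjusted p = 7.86e-05), -0.87 ± 0.15 and -0.86 ± 0.15. Eif4ebp3, its relative, read 0.21, 0.58 and 0.76 in Control arrays, 0.65, 0.83, 0.73, 0.89 and 1.36 in RA48 arrays, 0.89, 1.14 and 1.23 in RA96 arrays and 1.05, 1.13 and 1.31 in Puromycin arrays. It was higher by 0.37 ± 0.12 (adjusted p = 0.0237), 0.56 ± 0.11 (adjusted p = 0.000326) and 0.65 ± 0.11 (1.56-fold, adjusted p = 6.97e-05). Without Control replicate 2 or 3 or RA48 replicate 5 its 48 h call was lost (adjusted p from 0.0535 to 0.0922).

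The target of both, Eif4e, the cap-binding protein, was not called in any of the 5 comparisons over all arrays. Its difference at 48 h was -0.44 ± 0.16 (adjusted p = 0.0559), and with the set as a block -0.48 (adjusted p = 3.96e-05). Eif4g3, a scaffold that links the cap to the ribosome, was higher by 0.45 ± 0.10 in RA48 arrays (adjusted p = 0.00146), which read 0.11, 0.20, 0.28, 0.05 and 0.11, against -0.56, -0.33 and -0.05 in Control arrays (lowest, median and highest). Of its 3 probes 2 were called at 48 h (0.69 and 0.66) and the other changed by 0.01. Within the sets the 48 h change of Eif4g3 was 0.70 (adjusted p = 0.000165) and 0.19 (adjusted p = 0.23).

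Among elongation factors, the guanine exchange subunits fell and the carriers differed. Eef1a1, the common carrier of aminoacyl transfer RNA, was not called in any comparison, with changes of 0.06 ± 0.32, 0.24 ± 0.31 and 0.02 ± 0.31 against Control. Eef1a2, the form known from muscle and neurons, was lower by 0.39 ± 0.10, 0.68 ± 0.10 (adjusted p = 7.64e-06) and 0.40 ± 0.10. Eef1b2, of the exchange complex, read 0.95, 1.30 and 1.83 (lowest, median and highest) in Control arrays, 1.12, 0.77, 1.02, 0.57 and 0.96 in RA48 arrays and -0.15, 0.05 and 0.52 in RA96 arrays. The RA96 level of Eef1b2 was 0.73 ± 0.24 below RA48 (adjusted p = 0.0397) and 1.18 ± 0.23 below Control (2.27-fold lower, adjusted p = 0.000276). Leaving out any array of RA48 or RA96 other than RA48 replicate 4 and RA96 replicates 3 and 5 took the first of these calls away, the adjusted p then being 0.0584 to 0.101. Puromycin arrays of Eef1b2 held 0.24, 0.39 and 1.98, the highest being a lone array. Eef1d, of the same complex, changed by -0.64 ± 0.22, -0.70 ± 0.21 and -0.77 ± 0.21 against Control; without RA48 replicate 1, 2 or 3 or Control replicate 4, 5 or 6 the first of these was not called (adjusted p from 0.0587 to 0.0953).

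Eef1e1, which tethers transfer RNA synthetases in their complex, dipped and came back. It read 2.42, 2.57 and 2.72 (lowest, median and highest) in Control arrays, 1.65, 1.75, 1.66, 1.58 and 2.10 in RA48 arrays, 1.97, 2.21 and 2.34 in RA96 arrays and 2.36, 2.45 and 2.57 in Puromycin arrays. The fall was -0.82 ± 0.09 at 48 h (adjusted p = 4.94e-07), the rise of RA96 over RA48 was 0.46 ± 0.09 (adjusted p = 0.00174), and the end point difference from Control was -0.11 ± 0.09, which was not called (adjusted p = 0.336). Eef1akmt1, a methyltransferase of eEF1A, fell by 0.96 ± 0.12, 0.62 ± 0.11 and 0.82 ± 0.11 against Control. Eef2k, the kinase that inhibits eEF2, fell by 0.56 ± 0.14, 0.90 ± 0.13 (1.87-fold, adjusted p = 1.05e-05) and 0.58 ± 0.13. Eef2 itself was not called over all arrays (-1.63 ± 0.96 at the end point, adjusted p = 0.172). Its first-set arrays read -4.78, -4.87 and -4.59 after puromycin, against -2.43, -2.74 and -1.35 in Control, and its second-set arrays read -0.57, -0.64 and -0.59, against 0.03, 0.08 and 0.13. Within the sets the change of Eef2 was -2.57 (adjusted p = 3.28e-05) and -0.69 (adjusted p = 0.00601).

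The step from 48 to 96 h (RA96 against RA48) called few members: 9 higher and 4 lower, where 22.4% of all genes were called, 10.8% higher and 11.6% lower. The members' share was 8.61%. With the set as a block 15 were higher and 36 lower, against 15.7% and 20.3% of all genes. The random block called 1 member, Mrpl23 (lower), against 2.29% of all genes in either direction and 0.875% lower. Without RA48 replicate 2 the count over all arrays was 6, and without RA48 replicate 1 or 3 it was 7. Selection, read as Puromycin against RA96, called 2 higher and 2 lower, 2.65% of members against 7.82% of all genes, 4.7% higher and 3.12% lower. The 4 genes were Mrps18b and Eif2ak1 (higher) and Rps6 and Mrpl23 (lower). With the set as a block the counts were 8 and 12, against 10% and 7.45% of all genes. The random block called none (limma, 0 higher and 2 lower at an unadjusted p under 0.05), against 0.173% of all genes. Eif2ak1, the haem-regulated eIF2 kinase, read 0.36, 0.42 and 0.48 in Puromycin arrays against 0.06, 0.22 and 0.30 in RA96 arrays (lowest, median and highest), a rise of 0.24 ± 0.07 (adjusted p = 0.0396) with no overlap. Its end point difference from Control was -0.02 ± 0.07, which was not called. Leaving out RA96 replicate 2, 4, 5 or 6 or any Puromycin array but replicate 5 put its adjusted p between 0.0568 and 0.104. The count of called members was 1 without RA96 replicate 6 or Puromycin replicate 1, 2 or 3, 2 without RA96 replicate 2 or 5 or Puromycin replicate 6, and 6 without Puromycin replicate 5. Puromycin itself blocks translation, and the Puromycin arrays were also taken 48 h later than the RA96 arrays. The direct action of the drug, the loss of unselected cells and the longer time cannot be told apart in this design.

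Many genes that assemble ribosomes fell too. Of 68 measured genes of ribosome assembly and the nucleolus, 53, 55 and 55 were called lower in RA48, RA96 and Puromycin arrays against Control, and none higher (limma; at an unadjusted p under 0.05, 0, 1 and 0 were higher). The median changes were -0.64, -0.62 and -0.52. Gtpbp4, a GTPase of the large subunit's assembly, fell by 1.21 ± 0.11 at 48 h (adjusted p = 1.16e-08), Dkc1, which modifies ribosomal RNA, by 1.15 ± 0.09 at 96 h (adjusted p = 3.86e-10), and Rrp1b, a nucleolar protein, by 1.14 ± 0.10 at the end point (adjusted p = 1.74e-09). Of 14 factors of mitochondrial translation and ribosome assembly, 7, 8 and 7 were called lower and 0, 1 and 2 higher (at 48 h none at an unadjusted p under 0.05). Beside these 2 lists, 16.4%, 27.6% and 28.6% of all genes were called lower in the same comparisons, and 18%, 23.9% and 24.6% higher. Mtg1, an assembly GTPase, fell by 0.89 ± 0.19, 0.85 ± 0.18 and 0.94 ± 0.18, and Tfb1m, a methyltransferase of mitochondrial ribosomal RNA, by 0.89 ± 0.15 at 96 h and 1.15 ± 0.15 at the end point (adjusted p = 1.11e-06). These lists were written with earlier results of the data known, so their counts describe the arrays.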

How the data were processed

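RNA of A404 cells (Cy5) and of a whole embryo pool (Cy3) was hybridized to 23 two-colour Agilent arrays, read on a G2565AA scanner and quantified with Feature Extraction A.6.1.1, per the labels. The values the authors deposited are taken as log10 ratios from their range and from the dyes; the base, any centring and the direction are not stated in the sources used here, so folds rest on that reading. Ratios were divided by 0.301 to give log2. Of 21446 rows, 1161 (5.41%) that looked like control spots were left out; probes with 1 symbol were averaged per gene (probe table: 11100 with 1 symbol, 442 with several, 8743 with none), giving 17868 rows with no missing value. The number of arrays limits precision; intensities were not used.

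Group means of all 23 arrays were fitted across all rows with limma 3.58.1 (R 4.3.3), and p-values were adjusted by Benjamini-Hochberg over all 17868 rows. A row was called when this adjusted p was under 0.05. The fit was tested on simulated data. Array sets came from the first component of within-group deviations, computed without the members. Alternatives were a block for the set or for the replicate number, separate fits within the sets, a random block of group and set (statmod 1.5.0), other normalizations, array weights, single probes and each array left out. Same-numbered arrays correlated at -0.45 to 0.67 (30 of 33 pairs over 0.1), and 4 of 23 arrays correlated best with their own number, so the numbers did not pair the arrays. Python 3.11.15, numpy 2.4.6, pandas 2.3.3 and matplotlib 3.10.9 were used. Separate cultures are not stated for the replicates; p-values therefore reflect array-to-array spread that may be technical.

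Named members are Rps6, Eef1a1, Eef1a2, Eef2, Eef2k, Eif4e, Eif4ebp1, Eif5a and Eif6, up to 4 called rises and 4 called falls without overlap per comparison and class, and the 3 highest F statistics per class; for the rises and falls, the call and the lack of overlap follow from this rule. Members, lists and rules were chosen with earlier results of these data known.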

Additional observations from a re-analysis of the deposited data

Results flagged for a closer look

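Single arrays that stood far from the rest of their group were looked for in 164 groups of 5 or 6 arrays. These took in the groups of the 38 named members and some others. The search found 7 such values, where chance gives about 1 in 20. Eef1b2 read 1.98 on Puromycin replicate 2, against 0.24 to 0.52 on the other Puromycin arrays. Eif4g3 was also highest on that array, at 0.16 against -0.16 to -0.04. Eef2k read -1.07 on Puromycin replicate 4, against -1.52 to -1.40, and Rps23 read 2.04 on the same array, against 1.86 to 1.91. Rps23 had a second such value, 2.17 on RA48 replicate 5, against 1.68 to 1.76. Eef1akmt1 read 0.68 on Control replicate 2, against 1.11 to 1.29, and Mrpl1 read 1.55 on Control replicate 3, against 0.83 to 1.09.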

How the results depend on the processing

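With the array set as a block, 82, 51, 20, 107 and 112 members were called in RA48 versus Control, RA96 versus RA48, Puromycin versus RA96, RA96 versus Control and Puromycin versus Control, and 125 by the F test, against 52, 13, 4, 63, 66 and 71 without it. Group and set as a random block gave 14, 1, 0, 20, 21 and 18 (for the 0, limma gave 0 higher and 2 lower at an unadjusted p under 0.05), and called 12.5%, 2.29%, 0.173%, 21.5% and 24.5% of all genes in the 5 comparisons. Array weights gave 117, 97 and 97 in the first 3 comparisons, 114 in Puromycin versus Control and 143 by the F test, and a cytosolic median of -0.96 in Puromycin versus Control, against -0.39. The first set alone gave 36 (RA96 versus RA48), 7 (Puromycin versus RA96) and 108 by the F test, and the second set 27, 11, 105 (RA96 versus Control), 103 (Puromycin versus Control) and 120 (F). Of all genes the first set called 40.4% and 13.3% in the comparisons named for it, and the second 16%, 11.7%, 57% and 55.3%. Fitting only the groups compared gave 7 in RA96 versus RA48, and quantile normalization gave 7 in Puromycin versus RA96. No share over all genes is given here for array weights, quantile normalization, only the groups compared, the replicate block or arrays left out. The same holds for the F tests of the random block and within the sets. Those counts cannot be set against the whole array and are not results about the members. The causes were not tested.

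The replicate number does not pair the arrays; as a replicate block it gave 23 members for RA96 versus RA48, then 16 for Puromycin versus RA96 and 108 by the F test. Leaving out 1 array at a time gave 51 to 56, 6 to 15, 1 to 6, 59 to 64, 58 to 68 and 67 to 74 (F) members in the same order of comparisons. The cytosolic medians against Control then ranged from -0.33 to 0.03 (RA48), -0.21 to 0.08 (RA96) and -0.54 to -0.23 (Puromycin); the highest RA48 and RA96 values came without Control replicate 5.

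Of 190 changes of named members 103 were called. The random block ended 62 of these 103 calls and the second set alone 21; over all settings other than leaving out an array, 123 of 1236 values lost the call. Signs turned for some changes. Among them, with array weights, were Eef1a1 at -0.59 (Puromycin versus Control) and Eef1d at 0.35 (RA96 versus RA48). Rpl30 stood at -0.29 in the first set (RA48 versus Control). In the second set Rpl39l stood at -0.32 (RA96 versus Control), Mrps18a at 0.66 (Puromycin versus RA96) and Eif4g3 at 0 (Puromycin versus Control). This list is not complete. The RA96 means of Eif4ebp1, Eif5a and Eif6 were above the RA48 means over all arrays and below them within the second set. Signal over background was not analysed here, so no detection limit is given.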

Other observations

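Aminoacyl-tRNA synthetases, which load transfer RNA, did not all go the same way. Of 29 measured, 7, 11 and 12 were called lower in RA48, RA96 and Puromycin arrays against Control, and 0, 3 and 4 higher (limma; at an unadjusted p under 0.05, 2 were higher at 48 h). Of all genes 16.4%, 27.6% and 28.6% were called lower in these 3 comparisons, and 18%, 23.9% and 24.6% higher. The cytosolic Lars fell by 0.85 ± 0.16, 1.23 ± 0.15 and 1.47 ± 0.15, and Tars by 0.93 ± 0.09 at 48 h and 0.96 ± 0.08 at 96 h. The mitochondrial Hars2 rose by 0.92 ± 0.13 at 96 h and 0.94 ± 0.13 at the end point, and Vars2 by 0.92 ± 0.24 and 0.83 ± 0.24.

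Of 26 measured proteins of termination, recycling and other steps, 6, 12 and 12 were called lower and 0, 3 and 3 higher (1 higher at 48 h at an unadjusted p under 0.05, limma). Paip1, a partner of the poly(A)-binding protein, fell by 1.09 ± 0.20 at 96 h, and Paip2, which counters that protein, rose by 0.60 ± 0.21. Of 25 measured kinases and stress genes of translational control, 3, 7 and 8 were lower and 3, 7 and 6 higher. For both lists, the shares of all genes called lower were 16.4%, 27.6% and 28.6%, and those called higher 18%, 23.9% and 24.6%. Mycn, a driver of ribosome production, fell by 0.95 ± 0.15, 1.56 ± 0.14 and 1.64 ± 0.14, while Myc was higher by 0.77 ± 0.15 at the end point. Rps6ka3, a kinase, rose by 0.87 ± 0.10 and 1.03 ± 0.10 at 48 and 96 h.

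Some members were noticed for their values. Rpl27 read 0.69, 0.92, 1.21, 0.07 and -0.95 in RA48 arrays, against a Control mean of 1.36 ± 0.35 (SD), and within the sets its change was -0.25 (adjusted p = 0.366) and -1.97 (adjusted p = 0.000524). Rpl36a differed between the sets by 0.81, opposite to most cytosolic genes. The 2 probes of Mrpl11 disagreed in RA96 against Control, at -0.57 (adjusted p = 5.7e-06) and 0.37 (adjusted p = 0.132).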
